A study of Arabidopsis thaliana with 9 samples.

Results

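The CAP proteins of Arabidopsis thaliana are small secreted proteins named after the groups in which the fold was first seen, the cysteine-rich secretory proteins, antigen 5 and the pathogenesis-related PR-1 proteins. The genes described here are CAP loci chosen by family, from a list of 10 that was drawn up around AT4G25790, a gene already known from these arrays to be higher in the ERF115 overexpressor. A probe set that names 1 locus was found for 9 of the 10, and AT5G57625 was not analysed here. Those 9 probe sets are part of 22746 tested on each array, which name 13286 loci once the array annotation is joined to RefSeq's TAIR10.1 gene list. No member is on more than 1 probe set, and none lies on a probe set listed with several genes. Whether a locus is a CAP gene used no measured value. The 10 were listed with earlier results of these data known, however, and 12 further CAP loci were listed apart. Counts of members beside shares of all probe sets are therefore descriptions. The overexpressor value of AT4G25790 did put that gene on the list, so for the overexpressor comparisons it is given as a description with no test.

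In leaves, PR-1 is secreted into the space between cells after infection and is the classical marker of the salicylate response. Its cysteines hold a compact fold, PR-1 proteins bind sterols, and in tomato a short peptide cut from the C-terminal end of a PR-1 protein acts as a defence signal. Most plant genomes hold a family of related genes, many of which are expressed in healthy roots, and for most of them no separate role is established. ERF115, the factor altered in this study, is an ethylene response factor known for driving division of quiescent centre cells and regrowth after root injury.

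RNA came from untreated root tips, 3 mm long, cut from seedlings 5 days old and hybridised to 1-colour Affymetrix arrays, 3 arrays per genotype and 9 in all. The genotypes were wild type of the Col-0 accession (Col-0), an erf115 mutant in that background with the T-DNA insertion SALK_021981 (erf115ko), and Col-0 carrying the ERF115 coding sequence behind the p35S promoter (ERF115OE). That promoter is active in nearly all cells, so ERF115OE reports on the factor outside its own cells too, and the labels do not say how many transgenic lines were used. ERF115 itself was on none of the named probe sets, so the 2 altered lines were not checked against that gene.

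Levels are log2 values made by the authors with RMA, on which a difference of 1 is a 2-fold change. Differences were fitted with limma over all 22746 probe sets and called at a Benjamini-Hochberg adjusted p under 0.05. Intervals are 95% intervals of the log2 fold change and are not widened for the number of genes. Probe sets bind their targets unequally, so a level is compared between genotypes and not between genes. Array medians lay between 5.04 and 5.13, and correlations between arrays of the same genotype across probe sets were 0.995 to 0.998. Of the markers of root and shoot cell types that were looked for, 3 are named alone on a probe set here. They are the root hair expansins EXPA7 and EXPA18 and the photosynthetic gene RCA. No probe set was named for markers of the stem cell niche, root cap, endodermis, xylem or phloem, so the tip label was not checked against those cells. In bulk tips, fewer cells of a type and less RNA per cell cannot be told apart.

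**Figure D1:**
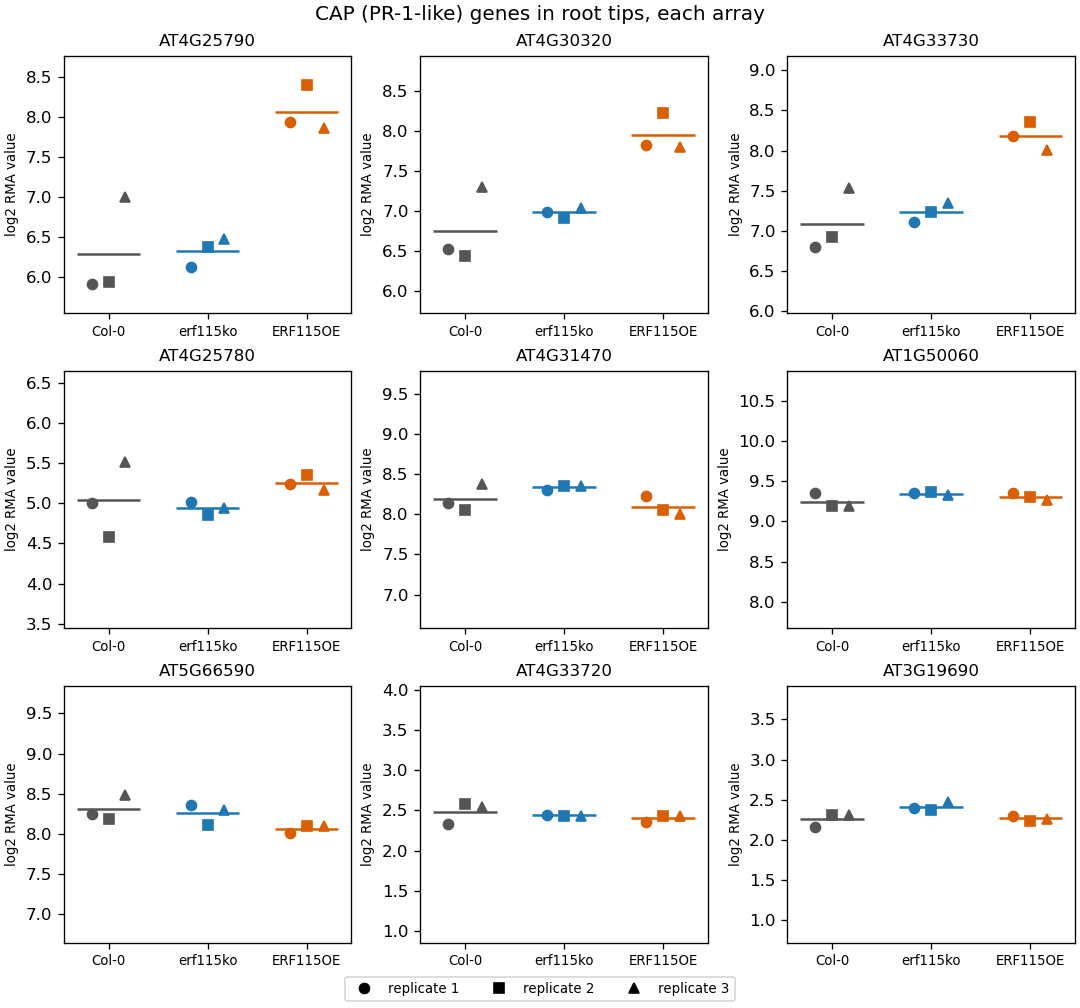
Log2 RMA value of each of the 9 CAP genes on each array, with 1 panel per gene and a y axis that spans the same log2 range in every panel. Points are arrays, symbols are replicate numbers and bars are means of 3 arrays. In AT4G25790, AT4G30320 and AT4G33730 the ERF115OE arrays all lie above the others, and Col-0 replicate 3 is the highest Col-0 array in each of these panels.

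In the overexpressor, 3 CAP genes stood well above wild type. AT4G25790, listed for this rise and so not tested, was higher by 3.42-fold. AT4G30320, by 2.29-fold, and AT4G33730, by 2.14-fold, both passed the test. The remaining 6 did not pass. None was called lower. Leaving out AT4G25790, whose rise put it on the list, 2 of 8 members were called higher and 0 lower, where 3.75% of all probe sets were called higher and 1.70% lower. The median log2 fold change of these 8 was 0.03, and that of all probe sets was -0.02.

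AT4G25790 read 5.92, 5.94 and 7.00 in the Col-0 arrays, 6.13, 6.38 and 6.47 in erf115ko and 7.94, 8.39 and 7.86 in ERF115OE. The 3 overexpressor arrays lay above all 6 others, and Col-0 replicate 3 lay above its own group and above every mutant array. Its log2 fold change was 1.78 against Col-0 (SE 0.26, interval 1.20 to 2.35) and 1.73 against erf115ko (SE 0.26, interval 1.16 to 2.30). The gene was listed for its rise, so these intervals describe the rise and do not test it. These comparisons share the overexpressor arrays. By size it was rank 22 among the increases over all probe sets in each of them. Its spread within genotypes was wide, with an SD of 0.62 in Col-0 against 0.18 in erf115ko and 0.29 in ERF115OE, and its residual SD exceeded that of 99.7% of probe sets.

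AT4G30320 read 6.52, 6.44 and 7.30 in Col-0, 6.99, 6.92 and 7.04 in erf115ko and 7.82, 8.22 and 7.80 in ERF115OE. The overexpressor arrays did not overlap with either other genotype, and Col-0 replicate 3 again stood above every mutant array. It rose by 1.19 against Col-0 (SE 0.20, interval 0.75 to 1.63, limma adjusted p = 0.00584). In size this was rank 88 among the increases over all probe sets.

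AT4G33730 read 6.80, 6.92 and 7.53 in Col-0, 7.12, 7.24 and 7.35 in erf115ko and 8.19, 8.36 and 8.01 in ERF115OE. The same order of arrays appeared, with ERF115OE on top without overlap and Col-0 replicate 3 highest among the rest. The rise against Col-0 was 1.10 (SE 0.17, interval 0.73 to 1.47, limma adjusted p = 0.00387), rank 115 by size. Both AT4G30320 and AT4G33730 passed against Col-0 under all 16 alternative settings, each single array left out among them, with adjusted p between 0.000374 and 0.0303 and between 0.000374 and 0.0209.

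AT4G33730 and AT4G25790 each lie next to a further CAP gene on chromosome 4. AT4G33720 directly precedes AT4G33730 among protein-coding loci, and AT4G33710 precedes that. AT4G33720 read 2.33 to 2.58 over all 9 arrays, and 12.0% to 13.4% of probe sets had a lower mean in the same genotype, so it was close to the floor of these arrays, where RMA compresses differences. Its log2 fold change in ERF115OE against Col-0 was -0.08 (SE 0.07, interval -0.24 to 0.09).

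AT4G25780 is the neighbour that directly precedes AT4G25790. It read 5.01, 4.58 and 5.52 in Col-0, 5.01, 4.85 and 4.94 in erf115ko and 5.24, 5.36 and 5.17 in ERF115OE. The Col-0 arrays spanned both other groups, with replicate 3 the highest of all 9 and replicate 2 the lowest. Its log2 fold change in ERF115OE was 0.22 against Col-0 (SE 0.18, interval -0.18 to 0.62, adjusted p = 0.577), and 0.46 without Col-0 replicate 3 (adjusted p = 0.0654). Against erf115ko it was 0.32 (interval -0.08 to 0.72), with no overlap between the arrays and no pass. The 5 other nearest loci of AT4G25790 with a probe set gave -0.41 to 0.09 in ERF115OE against Col-0. Among them AT4G25835 fell by 0.41 (SE 0.09, adjusted p = 0.0192), a call lost without Col-0 replicate 1 (adjusted p = 0.072) and with only the 6 arrays compared (0.0549), and the other 4 did not pass.

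The remaining members stayed within a narrow range over the 9 arrays. AT1G50060 varied least, between 9.19 and 9.36 over the 9 arrays, and its log2 fold change in ERF115OE against Col-0 was 0.06 (SE 0.07, interval -0.09 to 0.21). AT4G31470 read 8.14, 8.06 and 8.37 in Col-0, 8.30, 8.35 and 8.36 in erf115ko and 8.23, 8.06 and 8.00 in ERF115OE. It stood at -0.10 in ERF115OE against Col-0 (SE 0.09, interval -0.30 to 0.11). AT3G19690 read 2.17 to 2.48 over all arrays, again close to the floor, with 0.01 in ERF115OE against Col-0 (SE 0.07, interval -0.14 to 0.16). For these 3 genes the intervals leave no room for a difference in ERF115OE against Col-0 as large as that of AT4G30320 or AT4G33730, with the limit for AT3G19690 that values so low are compressed.

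AT5G66590 was the single member whose overexpressor arrays all lay below wild type. It read 8.25, 8.19 and 8.49 in Col-0, 8.36, 8.12 and 8.30 in erf115ko and 8.01, 8.09 and 8.09 in ERF115OE. Its log2 fold change against Col-0 was -0.24 (SE 0.09, interval -0.45 to -0.04), and the adjusted p of 0.191 did not pass. Of the 8 members other than AT4G25790, 3 had an unadjusted p under 0.05 in this comparison, AT5G66590 being the third, where 18.2% of all probe sets did. The arrays of the 2 genotypes did not overlap for 3 of these 8, namely AT4G30320, AT4G33730 and AT5G66590, against 19.9% of all probe sets.

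**Figure D2:**
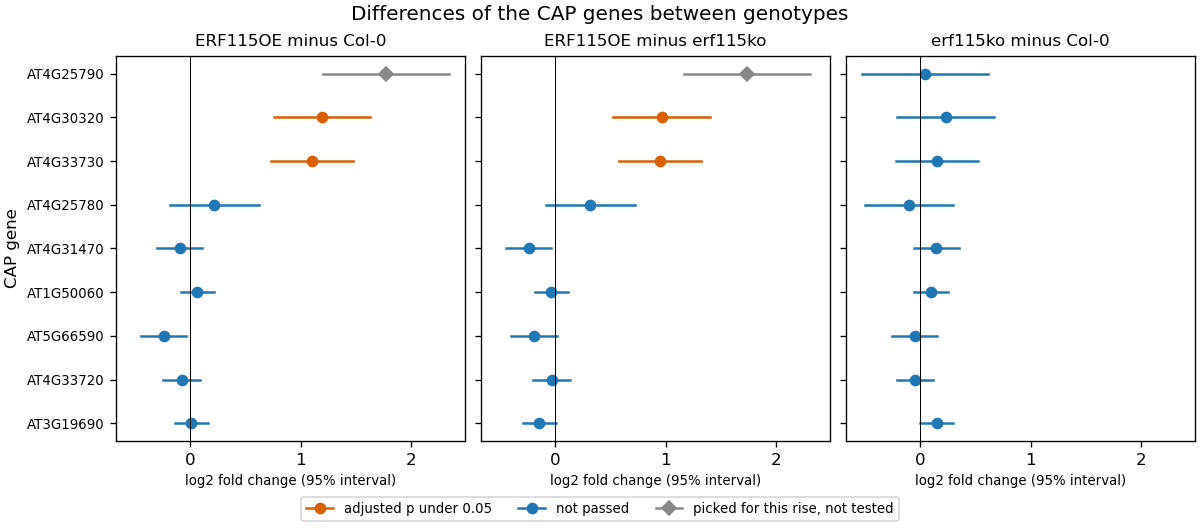
Log2 fold change of each CAP gene (x axis) with its 95% interval, in 1 panel per comparison, with genes on the y axis. Orange points passed at an adjusted p under 0.05, blue points did not, and grey diamonds mark AT4G25790 where it was picked for its rise. AT4G30320 and AT4G33730 lie near 1 in both overexpressor panels, and all 9 intervals but that of AT3G19690 span 0 in the mutant panel.

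No CAP gene passed the test in the erf115 mutant. In erf115ko against Col-0, 0 of 9 members passed in limma, and 1 of 9 had an unadjusted p under 0.05. Over all probe sets 0.0132% passed and 4.54% had an unadjusted p under 0.05. That 1 member was AT3G19690, at 0.15 (SE 0.07, interval 0.00268 to 0.301), near the array floor, and it was also the single member whose arrays did not overlap, where 8.15% of all probe sets did not.

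The genes that were high in ERF115OE had estimates slightly above 0 in the mutant, within their error. AT4G25790 differed by 0.04 (SE 0.26, interval -0.53 to 0.61), AT4G30320 by 0.23 (SE 0.20, interval -0.21 to 0.67) and AT4G33730 by 0.15 (SE 0.17, interval -0.22 to 0.52). Col-0 replicate 3 was the highest Col-0 array in all 3. Without it the values were 0.40, 0.50 and 0.37, and none passed (adjusted p = 0.907, 0.729 and 0.792). AT4G31470 stood at 0.14 (SE 0.09), AT1G50060 at 0.10 (SE 0.07), AT4G25780 at -0.10 (SE 0.18), and AT5G66590 and AT4G33720 at -0.05 each (SE 0.09 and 0.07).

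Set against the mutant in place of wild type, the overexpressor gave the same 2 calls. AT4G30320 rose by 0.96 (SE 0.20, interval 0.52 to 1.40, limma adjusted p = 0.0239) and AT4G33730 by 0.95 (SE 0.17, interval 0.58 to 1.32, adjusted p = 0.0118). Thus 2 of the 8 members other than AT4G25790 were called higher and 0 lower, where 2.65% of all probe sets were called higher and 1.03% lower. These calls use the overexpressor arrays of the first comparison and are no separate support for it. They were also less firm: AT4G30320 did not pass without erf115ko replicate 1, 2 or 3 or ERF115OE replicate 2 or 3 (adjusted p 0.0555 to 0.0952), and AT4G33730 did not pass without erf115ko replicate 1 (0.0654) or ERF115OE replicate 2 (0.0509).

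Of the same 8 members, 3 had an unadjusted p under 0.05 in that comparison, against 15.6% of all probe sets. The third was AT4G31470, lower by 0.24 in ERF115OE (log2 fold change -0.24, SE 0.09, interval -0.44 to -0.04, adjusted p = 0.223), which passed with array weights (-0.29, adjusted p = 0.0328). Arrays of the 2 genotypes did not overlap for 6 of the 8, against 20.1% of all probe sets. AT4G25780, AT4G30320 and AT4G33730 were on the higher side, and AT4G31470, AT3G19690 and AT5G66590 on the lower side. Of these, AT3G19690 read 2.23 to 2.30 in ERF115OE and 2.37 to 2.48 in erf115ko, close to the floor. Signs of RNA quality moved with these genotypes in 2 of 4 pairs of control probe sets. The 3'-to-5' difference of 1 actin pair was 1.96 to 2.14 in ERF115OE, 2.19 to 2.24 in erf115ko and 2.08 to 2.31 in Col-0. That of 1 GAPDH pair was 0.465 to 0.776 in ERF115OE, 0.784 to 0.865 in erf115ko and 0.677 to 1.05 in Col-0. The other actin pair overlapped between ERF115OE and erf115ko, at 4.18 to 4.54 and 4.34 to 4.53, as did the other GAPDH pair, at 0.108 to 0.244 and 0.110 to 0.312. Their part in the result was not tested.

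**Figure D3:**
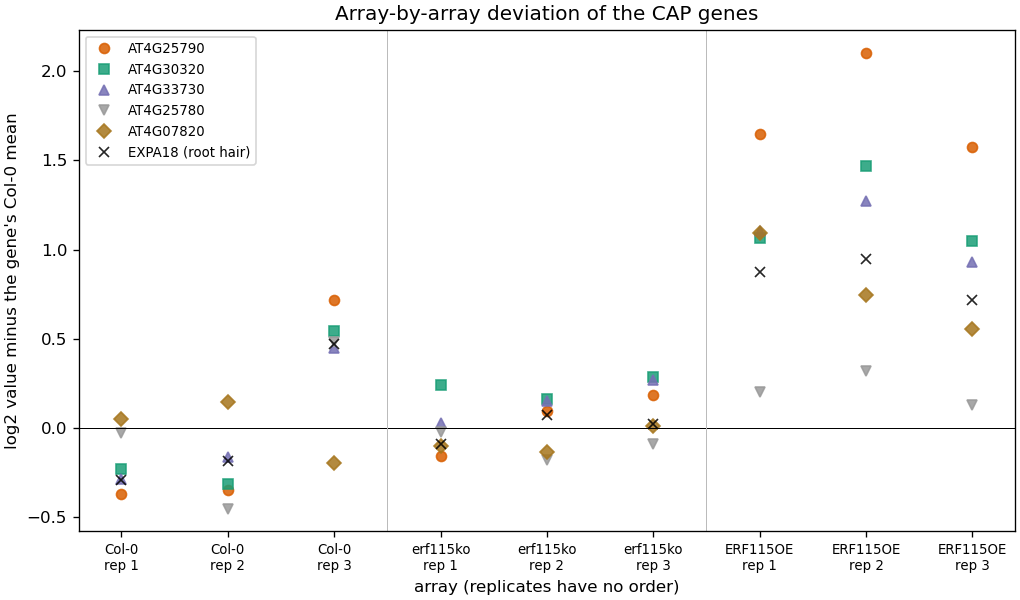
Deviation of 4 CAP genes, of the further CAP gene AT4G07820 and of the root hair expansin EXPA18 from each gene's own Col-0 mean (y axis, log2) on each of the 9 arrays (x axis). Points are single arrays. AT4G25790, AT4G30320, AT4G33730 and EXPA18 are raised together on Col-0 replicate 3 and on all ERF115OE arrays, while AT4G07820 is raised on the ERF115OE arrays and is low on Col-0 replicate 3.

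The 3 high genes also varied together between arrays of the same genotype. With the genotype means taken out, AT4G25790 correlated with AT4G33730 at r = 0.978 and with AT4G30320 at r = 0.959, and AT4G30320 with AT4G33730 at r = 0.923, over 9 arrays. Members that were not called shared part of this. With these 3 genes AT4G25780 stood at 0.747 to 0.890, and AT4G31470 and AT5G66590 at 0.588 to 0.776. AT4G33720 and AT3G19690 stood at 0.234 to 0.483, and AT1G50060 at -0.433 to -0.337. These are descriptions: the genes share the arrays, and the spread comes largely from Col-0 replicate 3. On that array AT4G25790 exceeded the mean of the other 2 Col-0 arrays by 1.07, a larger excess than that of 99.96% of probe sets. The excess was 0.82 in AT4G30320, 0.72 in AT4G25780 and 0.67 in AT4G33730, each larger than in 99.5% to 99.8% of probe sets, where the median over all probe sets was 0.02. AT1G50060 stood at -0.08, and the other 4 members at 0.07 to 0.27.

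Leaving out Col-0 replicate 3 widened the overexpressor differences. Against the remaining Col-0 arrays, AT4G25790 was 2.13 higher, AT4G30320 1.46 (adjusted p = 0.000374) and AT4G33730 1.32 (adjusted p = 0.000374). The 2 called genes therefore differed from Col-0 with and without the array that stood apart.

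The probe sets most like AT4G25790 over the 9 arrays were sought among 13435 others that name 1 locus. Arrays of ERF115OE stand apart from the rest, so the correlation over 9 arrays mostly follows that step, and the value with genotype means taken out is given beside it. AT4G33730 itself was among the 6 most alike (r = 0.992), and AT4G30320 was rank 12 (r = 0.980, or 0.959 within genotypes). The others were AT3G13650 (r = 0.994, or 0.974 within genotypes), AT5G24313 (0.994, or 0.956), AT1G34510 (0.990, or 0.969), AT4G19200 (0.988, or 0.936) and EXPA18 (0.988, or 0.954). Being chosen for likeness, their differences in ERF115OE against Col-0 are a description: 1.13 in AT3G13650, 1.03 in AT5G24313, 2.26 in AT1G34510, 0.53 in AT4G19200 and 0.85 in EXPA18.

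EXPA18 and EXPA7 are expansins that loosen the wall of growing root hairs, and both were fixed here as root hair markers. EXPA18 read 7.66, 7.76 and 8.42 in Col-0, 7.86, 8.02 and 7.97 in erf115ko and 8.82, 8.89 and 8.66 in ERF115OE. Col-0 replicate 3 was the highest Col-0 array here too, with an excess of 0.71 over the other 2. EXPA7 read 8.02, 8.19 and 8.17 in Col-0, 8.22, 8.30 and 8.26 in erf115ko and 8.85, 9.10 and 8.85 in ERF115OE. Its excess on Col-0 replicate 3 was 0.06. In erf115ko against Col-0, EXPA7 stood at 0.13 (SE 0.08) and did not pass.

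Both of the 2 root hair markers with a probe set, of 8 listed, rose in ERF115OE against Col-0, EXPA7 by 0.81 (SE 0.08, adjusted p = 0.000438) and EXPA18 by 0.85 (SE 0.17, adjusted p = 0.0137). EXPA18 did not pass without Col-0 replicate 1 (adjusted p = 0.0522), Col-0 replicate 2 (0.0599) or ERF115OE replicate 2 (0.0545), or with only the 6 arrays compared (0.0534). Both markers shared the rise in ERF115OE with AT4G25790, AT4G30320 and AT4G33730. Within genotypes, r with these 3 genes was 0.901 to 0.969 for EXPA18 and 0.497 to 0.558 for EXPA7. The part of the markers in the CAP result was not tested. RCA, the 1 photosynthetic marker of 3 listed with a probe set, stood at 0.15 (SE 0.11, adjusted p = 0.499).

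**Figure D4:**
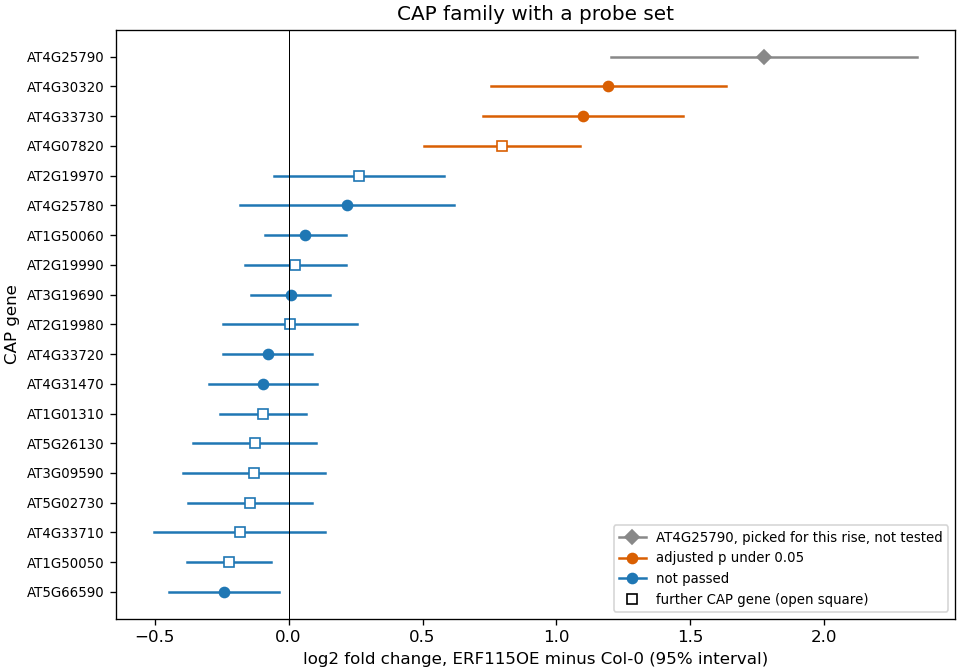
Log2 fold change in ERF115OE against Col-0 (x axis) with its 95% interval for the 19 CAP genes with a probe set (y axis), sorted by size. Filled points are the 9 listed genes and open squares the 10 further ones, orange marks an adjusted p under 0.05, and the grey diamond is AT4G25790, not tested. The genes that passed, in order of size below AT4G25790, are AT4G30320, AT4G33730 and, at 0.80, AT4G07820.

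The rest of the family was counted from a list of 12 further CAP loci, 10 of which have a probe set. In ERF115OE against Col-0, 1 of the 10 was called higher and 0 lower, with a median of -0.11, where 3.75% of all probe sets were called higher and 1.70% lower. Against erf115ko the counts were the same, with a median of 0.01, where 2.65% were called higher and 1.03% lower. Apart from AT4G07820 and AT2G19970, the further genes had means of 2.31 to 3.00 in every genotype. At such low levels RMA compresses differences, so the lack of a call there says little. The called gene, AT4G07820, read 3.70, 3.79 and 3.45 in Col-0, 3.54, 3.51 and 3.66 in erf115ko and 4.74, 4.39 and 4.20 in ERF115OE. It rose by 0.80 (SE 0.13, interval 0.51 to 1.09, adjusted p = 0.00563) and by 0.87 against erf115ko (SE 0.13, adjusted p = 0.00552), and passed in each of the 15 alternatives that kept its probe set. Its mean over the arrays lies under 4, so the setting that drops low probe sets leaves it out, and a difference at such a level is compressed.

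AT4G07820 did not share the wild-type spread of the other high genes. On Col-0 replicate 3 it was lower than the mean of the other Col-0 arrays by 0.30 (difference -0.30), where AT4G25790 was higher by 1.07. Within genotypes its r with AT4G25790 was -0.43, with AT4G30320 -0.49 and with AT4G33730 -0.27. Over the 9 arrays it nevertheless correlated with AT4G25790 at 0.799, through the step between ERF115OE and the rest.

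In erf115ko against Col-0, 0 of the 10 further genes passed in limma and 1 had an unadjusted p under 0.05, where 0.0132% and 4.54% of all probe sets did. The arrays did not overlap for 3 of the 10, against 8.15% of all probe sets. The gene with the unadjusted p under 0.05 was AT2G19970, which read 5.03, 4.80 and 4.60 in Col-0 and 5.25, 5.31 and 5.55 in erf115ko, without overlap (0.56, SE 0.14, adjusted p = 0.709). AT1G01310 was next by p, at -0.14 (SE 0.07), with values of 2.20 to 2.54 close to the floor, and did not pass either. PR-1-LIKE (AT2G19990), the family member whose table entry carries the PR-1 name, read 2.19 to 2.49 over all arrays, close to the floor. Its difference was 0.02 in ERF115OE against Col-0 (SE 0.08) and 0.10 in erf115ko against Col-0 (SE 0.08), and did not pass. The basic PR-1 gene and PR-1 itself, which were on the further list, were not analysed here.

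Defence genes outside the family could be read on few probe sets. Of 18 salicylate pathway genes, 1 is named alone on a probe set here. This gene, GRX480, a glutaredoxin of that pathway, stood at -0.38 in ERF115OE against Col-0 (SE 0.18, limma adjusted p = 0.295) and -0.37 in erf115ko against Col-0 (SE 0.18). Of 6 defence genes linked to jasmonate and ethylene, 2 are named alone on a probe set. The defensin PDF1.2 stood at -0.10 in ERF115OE against Col-0 (SE 0.11) and the thionin THI2.1 at 0.02 (SE 0.13), and neither passed in any of the 3 comparisons. Genotype means were 3.86 to 3.97 for PDF1.2 and 2.64 to 2.70 for THI2.1, both under 4, where differences are compressed. The 3 high CAP genes were thus not accompanied by a called rise in these 3 genes, which are a small part of the defence response.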

How the data were processed

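The deposited table holds log2 values of 22810 probe sets on 9 arrays, made by the authors with RMA in affy 1.36, per the submitters' processing notes. RMA corrects background, gives all arrays a common distribution and summarises each probe set over all arrays together. Tests leave out the 64 probe sets that serve as array controls. Names come from the array's annotation joined by gene ID to the TAIR10.1 gene list, and 8730 of the probe sets tested are unnamed here. A gene is said to have a probe set only where a probe set names it alone. Other genes may lie on unnamed probe sets or on those listed with several genes. The build behind the array design is not given in the sources used here, so chromosome positions are not printed.

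The model was fitted in limma 3.58.1 under R 4.3.3 with lmFit and eBayes. It has a mean for each genotype, 6 residual and 4.49 prior degrees of freedom, and a Benjamini-Hochberg adjustment over 22746 probe sets per comparison. The typical (median) SE of a difference was 0.0881 on the log2 scale. Its precision is limited by the number of arrays. The labels do not say that replicates are separate cultures. The p-values then cover only the spread between these samples, possibly a technical one.

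All listed members are named, with the called members of each further list (at most 4, or the 2 smallest p where none passed), the 6 probe sets with the highest Pearson r to AT4G25790, and 3 loci on each side of it. Members, lists and this rule were chosen with earlier results of these data known. Alternatives were median centring, quantile normalization, a filter at a mean of 4, a trended prior, array weights, only the 6 arrays compared, the replicate number as a block, and each array left out. No sequence was analysed here.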

Additional observations from a re-analysis of the deposited data

How the results depend on the processing

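Of 426 recomputed differences of the 9 CAP genes, 418 kept their side of the threshold or, for AT4G25790 in the overexpressor, their size within 1 residual SD, 7 lost their call (5 of AT4G30320 and 2 of AT4G33730, in ERF115OE against erf115ko) and 1 gained a call (AT4G31470, array weights). Of the members other than AT4G25790, 2 were higher against Col-0 in every setting and 0 lower. Against erf115ko 0 to 2 were higher with 1 array left out, and with array weights 1 was lower. In erf115ko against Col-0 0 passed in every setting. Over all probe sets, ERF115OE against Col-0 gave 854 higher and 387 lower, with 522 to 976 and 226 to 377 when 1 array was left out, and 226 lower with only the 6 arrays compared. Higher calls were 68.8% of these as deposited and 56.7% with median centring. ERF115OE against erf115ko gave 602 and 235, with 280 to 695 and 75 to 262 when 1 array was left out, and 1079 and 683 with array weights. In erf115ko against Col-0, 1 was higher and 2 lower. With 1 array left out this became 0 to 1 and 0 to 5. Median centring gave 2 higher, array weights 3 higher and 7 lower, the low-value filter 1 lower and the 6 arrays alone 0 lower. The cause of these shifts was not tested.

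With the replicate number as a block, 885 probe sets were higher and 379 lower in ERF115OE against Col-0, 633 and 214 against erf115ko, and 1 and 1 in erf115ko against Col-0. No CAP call changed under the block. Deviations of same-numbered arrays correlated at -0.21 to 0.14, and 1 of 9 arrays correlated best with its own number in both other genotypes. Between Col-0 and erf115ko, same-numbered pairs stood at 0.138, 0.120 and 0.0962, and different-numbered pairs at -0.0828 to -0.0357. In pairs with ERF115OE the same-numbered values ran from -0.212 to 0.0584 and the different-numbered ones from -0.225 to 0.277. Whether same-numbered samples share more than a number was not tested.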
